A study of Mus musculus with 5 samples.

Results

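The clade B serpin locus of mouse chromosome 13 was examined for Runx3 binding and for the enhancer-type histone mark H3K4me1 in IL-2-activated CD8-TC (CD8+ T cells). It was defined by 7 genes, Serpinb1a, Serpinb1c, Serpinb6b, Serpinb9, Serpinb9b, Serpinb1b and Serpinb6a, out of 22350 protein-coding genes on the autosomes and X. All called regions that overlapped these gene bodies, the 10 kb on each side of them or the intervals between them were taken, which gave 6 of the 9135 Runx3-bound regions and 14 of the 18992 H3K4me1-marked regions. The resulting interval was 1.18 Mb long (mm9, chr13:32923961-34104663). It held 18 protein-coding genes in the GENCODE vM1 annotation, of which 15 were named there as clade B serpins: the 7 given above and 8 others. RefSeq gives Gm11397 the name Serpinb9h, which makes 16. It was not in the lists of serpins used here and is described separately. The remaining 2 were Nqo2, a quinone reductase gene, and Ripk1, a kinase gene of death receptor signalling.

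Clade B serpins lack a classical secretion signal and act mainly inside cells, where they trap serine or cysteine proteases in an irreversible complex. In cytotoxic lymphocytes, which store granzymes in lytic granules, Serpinb9 inhibits granzyme B and protects the killer cell from its own protease. Serpinb9b has been described as an inhibitor of granzyme M, Serpinb6b of granzyme A, Serpinb6a of cathepsin G, and Serpinb1a of the neutrophil proteases elastase, cathepsin G and proteinase 3. Runx3 belongs to the RUNX transcription factors and acts in the development and function of cytotoxic lymphocytes. H3K4me1, a methylated form of histone H3, is typical of enhancers and of the flanks of active promoters.

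CD8-TC were taken from spleens of ICR mice, activated through the TCR with anti-CD3e and anti-CD28 (2 days) and then grown with IL-2 at 100 u/ml (4 days). Of the 5 ChIP-seq libraries, 2 were precipitated with anti-Runx3 antibody, 2 with NIS (non-immune serum, the control) and 1 with anti-H3K4me1 antibody, and all came from the same kind of culture. An untreated or Runx3-deficient group was not analysed here. Each list of regions was called once, on joined reads, so that no value below has a replicate error, and the lists carry no peak height, so that the read depth behind a region is unknown. For each antibody and for NIS, the study's methods give fewer uniquely aligned reads here than in resting CD8-TC. A region not called is therefore not shown to be unbound or unmarked. Expression was not part of these lists, so the identity of the cells could not be checked here against marker genes. The study's methods describe nearly all cells at the end of such cultures as CD3+ CD8-TC. ICR is an outbred stock, the number of animals behind a library is not given in the sources used here, and the reads were placed on an assembly of another strain, C57BL/6J.

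The 6 Runx3-bound regions are numbered 1 to 6 from Serpinb1a towards Serpinb1b. For each, the 200 bp with the most RUNX motifs is printed below, to show the bound sequence at each gene. The windows were picked for motif count, so that the one of region 6 leaves out the centre of the region and the motif nearest to it. They were read from the plus strand of mm9, and capitals mark the RUNX motif on either strand. Its forms were TGTGGT with TGTGGC, and TGCGGT with TGCGGC, and on the minus strand TGTGGT reads as ACCACA while TGTGGC reads as GCCACA.
Runx3-bound region 1, chr13:32925222-32925421: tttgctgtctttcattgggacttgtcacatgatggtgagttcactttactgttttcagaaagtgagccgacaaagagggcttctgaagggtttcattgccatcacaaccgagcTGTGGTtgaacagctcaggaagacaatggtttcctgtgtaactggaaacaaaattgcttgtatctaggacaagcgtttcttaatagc
Runx3-bound region 2, chr13:32994528-32994727: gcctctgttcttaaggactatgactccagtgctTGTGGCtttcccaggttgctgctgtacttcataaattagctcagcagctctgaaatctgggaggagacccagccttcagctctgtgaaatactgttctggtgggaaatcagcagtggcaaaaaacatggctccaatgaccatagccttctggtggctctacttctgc
Runx3-bound region 3, chr13:33021128-33021327: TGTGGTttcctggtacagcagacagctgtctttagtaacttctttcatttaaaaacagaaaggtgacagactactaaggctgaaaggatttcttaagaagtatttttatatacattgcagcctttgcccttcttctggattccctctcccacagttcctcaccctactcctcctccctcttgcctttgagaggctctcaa
Runx3-bound region 4, chr13:33058057-33058256: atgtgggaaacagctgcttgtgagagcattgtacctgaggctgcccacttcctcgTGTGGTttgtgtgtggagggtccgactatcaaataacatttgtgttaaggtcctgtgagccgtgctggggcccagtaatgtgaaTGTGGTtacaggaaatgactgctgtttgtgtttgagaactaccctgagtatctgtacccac
Runx3-bound region 5, chr13:33093251-33093450: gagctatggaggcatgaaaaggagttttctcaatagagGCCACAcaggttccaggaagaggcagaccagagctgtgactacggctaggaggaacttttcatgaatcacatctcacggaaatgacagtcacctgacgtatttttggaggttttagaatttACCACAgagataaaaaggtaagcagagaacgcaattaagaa
Runx3-bound region 6, chr13:33163597-33163796: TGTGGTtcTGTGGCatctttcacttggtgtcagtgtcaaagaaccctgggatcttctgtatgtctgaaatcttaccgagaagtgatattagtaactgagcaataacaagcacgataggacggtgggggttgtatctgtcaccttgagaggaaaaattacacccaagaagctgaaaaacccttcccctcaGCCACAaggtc

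All 6 regions held at least 1 RUNX motif, against 92.6% of the whole Runx3 list. There were 12 motifs in 3134 bp of bound sequence, that is 3.83 per kb, compared with 4.28 per kb over the list. The form TGTGGT was present in 5 of the 6 regions and in 69.6% of the list, the exception being region 2, whose only motif was TGTGGC. The forms TGCGGT and TGCGGC occurred in none of the 6. Within the central 200 bp, 5 of the 6 regions held a RUNX motif, against 78.7% of the list. The exception was region 3, whose motif lay 119 bp from the centre. Since nearly every region of the list has the motif, its presence does not set the serpin regions apart.

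Motifs of other transcription factor families differed more from region to region. The ETS motif was searched as AGGAAA with AGGAAG, and as CGGAAA with CGGAAG, on both strands. It occurred in 5 of the 6 regions and in 88.9% of the list, and 6 of its 15 occurrences lay in region 4, inside Serpinb6b. Region 2, upstream of Serpinb1c, had no ETS motif. In regions 1, 4, 5 and 6, an ETS motif lay within 50 bp of a RUNX motif, that is in 4 of 6 regions, compared with 57.4% of the list. In region 3 the TGTGGT shared a base with an ETS motif on the other strand, and such an overlap was not counted as a pair. A pair of RUNX motifs within 50 bp was found in region 6 alone, against 37.4% of the list, where a TGTGGT and a TGTGGC were separated by a pair of bases. Region 6 also held the only AP-1 motif of the 6 regions, TGACTCA, at 431.5 bp from the centre of its 946 bp. The form TGAGTCA was searched as well, and the motif was found in 13.5% of the list. The rest of the locus was not searched for it. With 6 regions these shares are descriptions, and a motif match does not show which protein was bound.

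**Figure D1:**
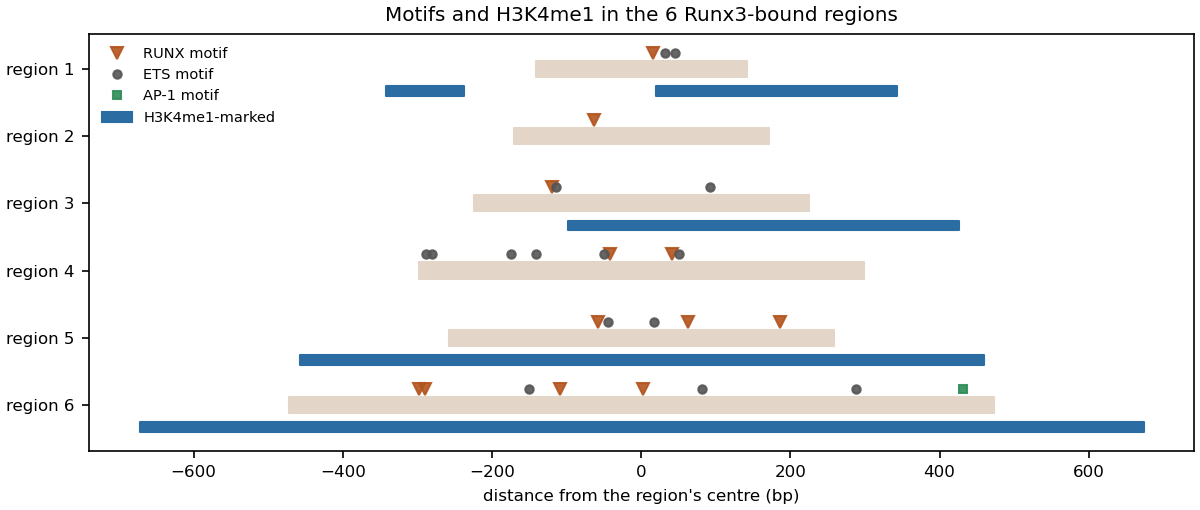
Motifs of the 6 Runx3-bound regions (pale bars), drawn by distance in bp from the centre of each region, with the H3K4me1-marked sequence (blue bars) drawn up to 200 bp beyond each region. Triangles are RUNX motifs, circles ETS motifs and the square the AP-1 motif. Regions 5 and 6 lie wholly within H3K4me1-marked sequence, region 3 in part, region 1 at the edge of a break in the mark, and regions 2 and 4 outside it.

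The 6 regions were placed at Serpinb1a, Serpinb1c, Serpinb6b, Serpinb9 and the space before Serpinb1b, at the left end of the interval. Consecutive regions were separated by 68.99, 26.23, 36.38, 34.64 and 69.82 kb. All but one were intergenic. Region 1 (chr13:32925180-32925463) lay 8.5 kb downstream of the Serpinb1a gene body. Region 2 (chr13:32994457-32994797) was centred 4.6 kb upstream of the start of Serpinb1c. Region 3 (chr13:33021025-33021474) lay between genes, 31.0 kb upstream of Serpinb1c and 35.71 kb upstream of Serpinb6b, which are transcribed away from each other, and within 10 kb of neither. Region 4 (chr13:33057859-33058454) was the one inside a gene: it lay in intron 1 of Serpinb6b in all 3 coding transcripts and was centred 0.97 kb downstream of the gene start. Region 5 (chr13:33093092-33093608) was centred 1.77 kb upstream of the start of Serpinb9, the granzyme B inhibitor. Region 6 (chr13:33163425-33164370) was centred 12.1 kb upstream of Serpinb1b and lay 29.67 kb beyond the end of Serpinb9b.

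In width the regions ran from 284 to 946 bp, with a median of 483.5 bp against 521 bp for the list. Region 6 was wider than 97.1% of all Runx3-bound regions, whereas region 1 was wider than 3.55% and region 2 (341 bp) wider than 9.64%. Regions 3, 4 and 5 lay in the middle of the list, with 30.6%, 68.1% and 48.8% of regions narrower. Width is the only graded value that the lists hold, and it is not a measure of how strongly Runx3 was bound.

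H3K4me1 accompanied 4 of the 6 Runx3-bound regions (66.7%, Wilson 95% interval 30.0 to 90.3%, for counting error only), against 57.3% of the whole list, which lies inside that interval. The 4 differed in how they met the mark. Region 5 at Serpinb9 and region 6 before Serpinb1b were covered along their whole length. Region 3 shared 324 bp, or 72.0% of its length, with the mark. Region 1 at Serpinb1a shared 122 bp, or 43.0%. It sat over a break of 258 bp between a pair of H3K4me1-marked regions, covered 162 bp of that break and stopped 96 bp short of the other edge. Of the regions without the mark, region 4 in Serpinb6b ended 365 bp before the next H3K4me1-marked region, and region 2 at Serpinb1c was 26354 bp away from the nearest one. Region 2 was therefore the one Runx3-bound region of the locus that stood apart from the mark at any short distance.

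**Figure D2:**
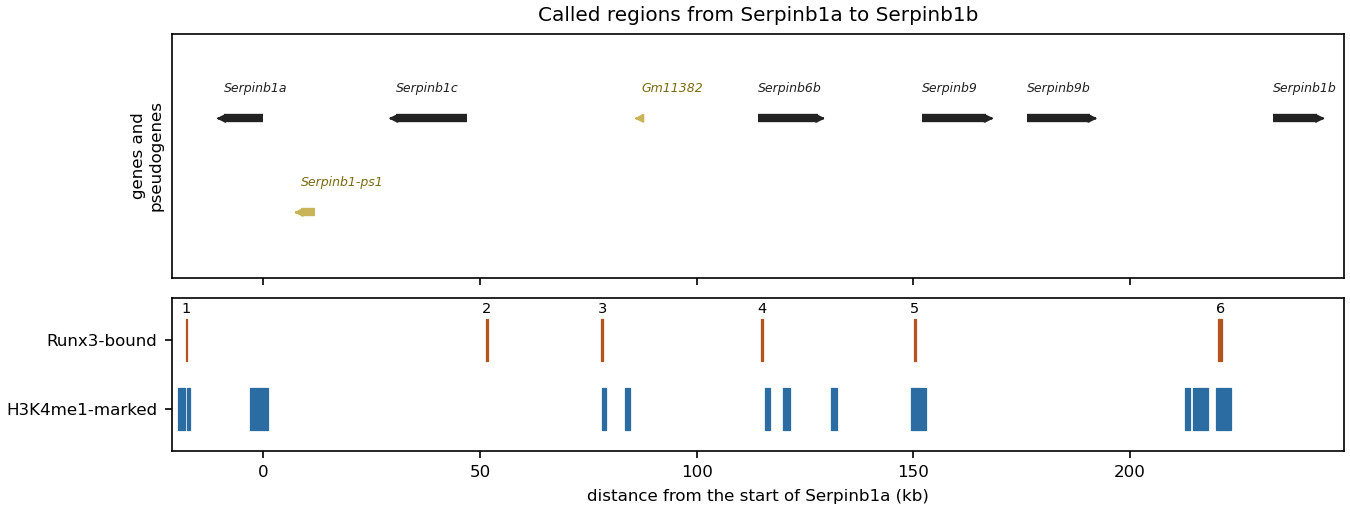
Genes, pseudogenes and called regions from Serpinb1a to Serpinb1b, by distance in kb from the start of Serpinb1a. Arrows give the direction of transcription, orange bars the Runx3-bound regions with their numbers and blue bars the H3K4me1-marked regions. The 14 H3K4me1-marked regions form groups around Serpinb1a, between Serpinb1c and Serpinb6b, in Serpinb6b, at the start of Serpinb9 and before Serpinb1b, and none lies near Serpinb1c.

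Seen from the mark, 4 of the 14 H3K4me1-marked regions held a Runx3-bound region (28.6%, Wilson 95% interval 11.7 to 54.6%), against 29.2% of the whole H3K4me1 list. At Serpinb1a, H3K4me1 covered the gene start. A region of 3143 bp (chr13:32940009-32943151) reached from 97 bp upstream to 3045 bp downstream and overlapped exons 1, 2 and 3, and after a break of 111 bp a region of 873 bp continued upstream to 1081 bp. At Serpinb9 the mark also spanned the gene start. A region of 1827 bp (chr13:33094128-33095954) reached from 991 bp upstream to 835 bp downstream and overlapped exon 1, and a break of 58 bp separated it from the region of 1667 bp (chr13:33092403-33094069) that holds Runx3-bound region 5. The start of a protein-coding gene lay within H3K4me1-marked sequence for 2 of the 7 genes, compared with 1.29% of all protein-coding genes. It did so for none of the 8 other listed clade B serpins of the interval, and the 7 were chosen with earlier results known.

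Serpinb6b carried the mark inside the gene and not at its start. A region of 1129 bp in intron 1 (chr13:33058819-33059947) began 1637 bp downstream of the gene start, and one of 1718 bp (chr13:33062864-33064581) overlapped exons 3 and 4 of the transcripts with 7 exons. Another lay outside the gene, within 10 kb beyond its end. Before Serpinb1b, 3 regions of 1225, 3577 and 3587 bp followed each other with breaks of 581 and 1721 bp. The last of them (chr13:33162773-33166359), which holds Runx3-bound region 6, was wider than 93.8% of the H3K4me1 list and ended 9.63 kb before the Serpinb1b start.

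Per gene, with 10 kb added on each side of the gene body, 4 of the 7 genes had a Runx3-bound region (57.1%), compared with 27.5% of all protein-coding genes and 31.8% of the 11089 genes whose bodies were between 9.09 and 84.9 kb long, as were those of the 7. Each of Serpinb1a, Serpinb1c, Serpinb6b and Serpinb9 had 1 region, and 9.2% of all genes had 2 or more. H3K4me1-marked regions were also found at 4 of the 7 genes, against 32.9% of all genes and 39% of those of like length. Serpinb1a had 4 such regions, a number reached by 6.58% of all genes, and they covered 20.5% of the window. They lay in close pairs, with breaks of 258 and 111 bp inside the pairs, and each was counted singly. With regions closer than 1 kb merged, the whole interval held 10 H3K4me1-marked regions in place of 14. Serpinb6b had 3 (12.7% of the window), Serpinb9 had 2 (10.1%) and Serpinb1b had 1 (1.21%). Both kinds occurred at 3 of the 7, Serpinb1a, Serpinb6b and Serpinb9, against 19.9% of all genes. None of the 8 other listed clade B serpins of the interval had a region of either kind in such a window. Among all 15 listed clade B serpins the counts thus stayed at 4, 4 and 3. The 7 genes were chosen with earlier results of these data known, so their shares cannot be read as an excess. Neighbouring genes are not independent and each list was called once, so no test was made of these shares.

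The counts depended on how far from a gene a region was sought. In the gene body alone, Runx3-bound regions were found at 1 of the 7 genes, Serpinb6b, against 18.1% of all genes, and H3K4me1 at 3, against 21.1%. With 5 kb on each side, 3 genes had a Runx3-bound region and 3 had H3K4me1, against 23.5% and 28.6% of all genes. With 20 kb, the numbers were 5 and 4, against 34.2% and 39.4%. When each gene was given a domain reaching to its neighbours, a setting chosen after seeing the data, 6 of the 7 had a Runx3-bound region and the same 6, all but Serpinb6a, had H3K4me1. The shares over all genes were then 35.5% for Runx3, 41.2% for H3K4me1 and 28.2% for both. Such domains overlap, so that neighbouring serpins share regions.

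With 10 kb on each side, Serpinb1c, Serpinb1b, Serpinb9b and Serpinb6a each lacked a region of at least 1 of the lists. Serpinb1c had a Runx3-bound region but no H3K4me1, with the nearest marked region 31.12 kb from its start. Serpinb1b had a marked region at the far edge of its window but no Runx3-bound region, since region 6 lay 11.62 kb from its start and so just beyond 10 kb, while region 1 at 8.5 kb from Serpinb1a lay just inside. Serpinb9b, which directly follows Serpinb9, had neither: its start was 25.68 kb from the nearest Runx3-bound and 23.33 kb from the nearest H3K4me1-marked region. Serpinb6a, at the other end of the interval and with the longest body of the 7 (84877 bp), had neither, and its start was 127.08 kb and 84.78 kb away from them.

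**Figure D3:**
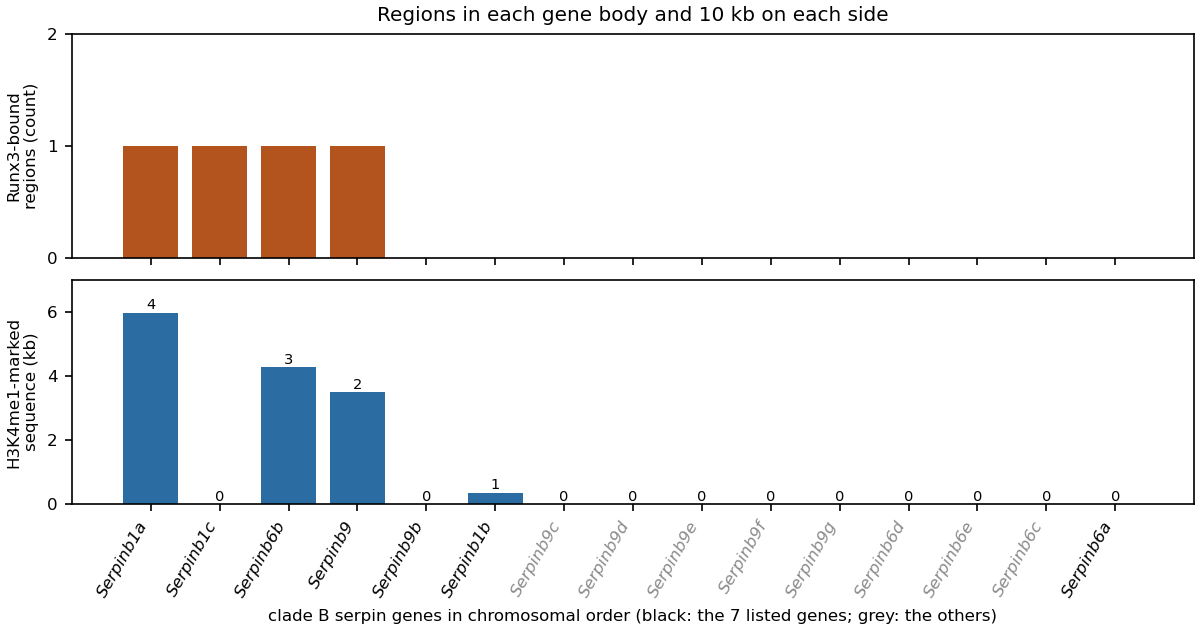
Runx3-bound regions (count, upper panel) and H3K4me1-marked sequence (kb, lower panel, with the number of marked regions above each bar) in the gene body and 10 kb on each side, for the 15 listed clade B serpin genes of chromosome 13 in chromosomal order. Bars are present for Serpinb1a, Serpinb1c, Serpinb6b, Serpinb9 and Serpinb1b, and all genes from Serpinb9c to Serpinb6a are at 0 in both panels.

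Occupancy of the locus was thus one-sided. All 6 Runx3-bound and 14 H3K4me1-marked regions overlapped the 242.4 kb from the left end of the interval to chr13:33166359, a stretch with 5 coding genes. The first H3K4me1-marked region (chr13:32923264-32925083) reached past the left end, and the others lay wholly inside. Its length was set by the regions themselves, so its density, 24.8 Runx3-bound and 57.8 H3K4me1-marked regions per Mb, is given only as a description. Over the whole interval the densities were 5.08 and 11.9 per Mb, compared with 3.46 and 6.95 per Mb on chromosome 13 and 3.57 and 7.43 per Mb on the autosomes and X. H3K4me1 covered 2.07% of the interval, 1.24% of chromosome 13 and 1.39% of the autosomes and X. The interval was set by genes chosen with earlier results of these data known, so these values too are descriptions and cannot be read as an excess.

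The remaining 938.3 kb, with 13 coding genes, held no region of either list. It holds Serpinb1b and Serpinb6a, the 8 other listed clade B serpins, Gm11397 (Serpinb9h), Nqo2 and Ripk1. None of Serpinb9c, Serpinb9d, Serpinb9e, Serpinb9f, Serpinb9g, Serpinb6d, Serpinb6e and Serpinb6c had a region of either kind within 10 kb, and their starts were between 87.24 kb (Serpinb9c) and 468.47 kb (Serpinb6d) from the nearest Runx3-bound region. Gm11397 had none either, at 323.26 kb. The stretch without regions went on past the interval: the next H3K4me1-marked region lay 74.78 kb and the next Runx3-bound region 117.08 kb to its right. From end to end, the stretch free of both lists was 1.01 Mb long and contained 15 coding gene starts. Gaps of this length also occurred elsewhere, as a small share of all gaps. Between neighbouring regions of either list, 29 of 960 gaps on chromosome 13 were as long, this one included, and over the autosomes 2.21% were. The median gap over all chromosomes was 11.48 kb. As many coding gene starts were found in 7 gaps of chromosome 13, and in 127 of the 22184 gaps over all chromosomes.

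**Figure D4:**
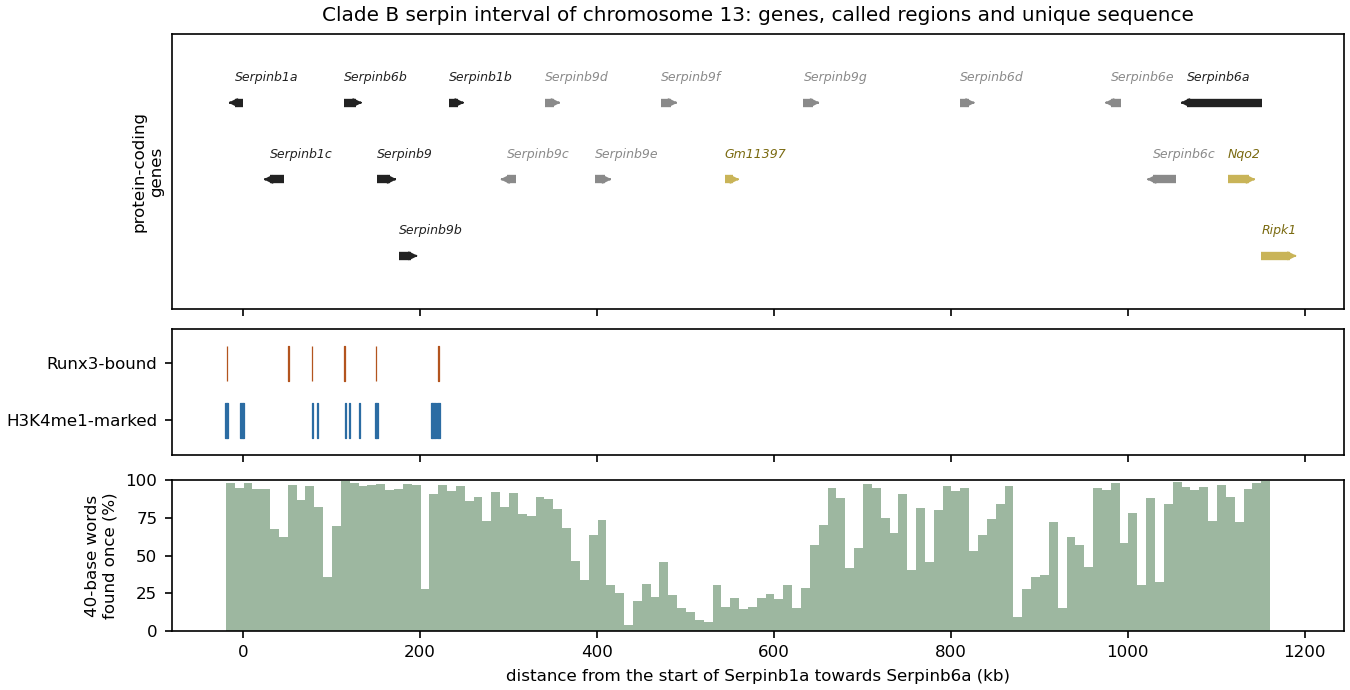
The whole interval by distance in kb from the start of Serpinb1a, with protein-coding genes (the 7 genes in black, other listed clade B serpins in grey, Gm11397, Nqo2 and Ripk1 in yellow), called regions of both lists, and the percentage of 40-base words found once in the genome in bins of 10 kb. All regions lie left of Serpinb1b, and the low bins lie mostly around Serpinb9f and Serpinb9g and again before Serpinb6e.

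**Figure D5:**
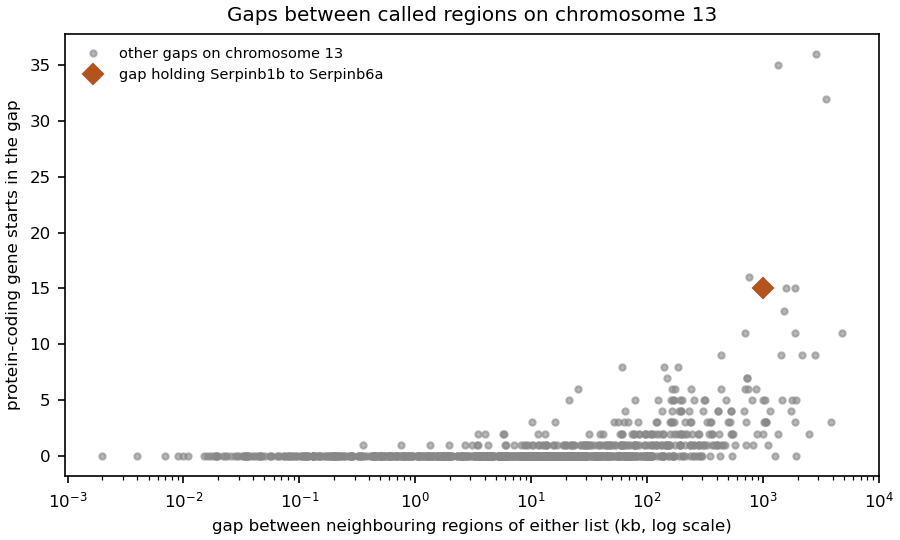
Length in kb (log scale) of the 960 gaps between neighbouring regions of either list on chromosome 13, against the number of protein-coding gene starts in each. The gap from Serpinb1b to beyond Serpinb6a (diamond, 15 starts) is among the 29 longest and among the 7 with the most gene starts, and other gaps hold up to 36 starts.

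The stretch without regions also contained more repeated sequence. Only uniquely aligned reads had been kept, and reads were about as long as the 40-base words used here. Such words were found once in the genome for 61.1% of the stretch within the interval, for 86.4% of the 242.4 kb with regions and for 86.1% of words sampled on chromosome 13. In bins of 10 kb the stretch ranged from 3.78 to 99.8%, with a median of 70.3%, and 36 of 93 bins were under 50%. At 90% or more were 23 of the 93 bins. In the part with regions, 18 of 25 bins were at 90% or more and 2 were under 50%, with a median of 95.0%. The windows around Serpinb9f, Serpinb9g and Serpinb9e were lowest, at 27.9%, 37.3% and 55.2%, and those of the 5 other listed clade B serpins outside the 7 were between 78.7 and 85.1%. The 2 windows of the 7 genes without a region of either list were largely unique, at 95.5% for Serpinb9b and 91.3% for Serpinb6a. Serpinb1c, with 78.6%, was the lowest of the 7 and had a Runx3-bound region. The part of repeated sequence in the stretch without regions was not tested.

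The genes of the locus are close copies of each other. Over the coding sequence, Serpinb1a was 90.7% identical to Serpinb1b, Serpinb1c 89.8% to Serpinb1a, Serpinb9 86.5% to Serpinb9b, Serpinb6b 87.9% to Serpinb6c and Serpinb6a 87.2% to Serpinb6c. Among the 15 listed genes the highest identity was outside the 7, with 98.7% between Serpinb9f and Serpinb9g. Each Runx3-bound region was therefore aligned to the rest of the interval, which gave 8 copies of at least 25% of a region, for regions 2, 3, 5 and 6. All words of these 8 copies were found once in the genome. Of the 8 copies, 1 overlapped an H3K4me1-marked region and none a Runx3-bound region. Over the interval of 1.18 Mb, Runx3-bound regions covered 3134 bp and H3K4me1 covered 2.07%. Most short stretches of the interval would thus overlap neither, and these counts do not set the copies apart. The copy that overlapped H3K4me1 was one of 95 bp of region 2, 0.98 kb upstream of Serpinb1a.

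All 8 copies lay upstream of the nearest annotated gene start. Region 5, upstream of Serpinb9, had a copy of 289 aligned bp at 80.6% identity 3.66 kb upstream of Serpinb9b and one of 189 bp at 78.3% 4.91 kb upstream of Serpinb9c. Another copy of 261 bp at 82.4% lay 8.47 kb upstream of the pseudogene Gm11382. Of the 3 RUNX motifs of region 5, 1 lay in the aligned part. The motif was present at the same place in the copy before Serpinb9b and in neither of the others. The copy before Gm11382 held 1 RUNX motif at another place, outside the stretch printed below, and the copy before Serpinb9c held none. The aligned stretches around the aligned motif of region 5 are shown because they set the Runx3-bound sequence beside its copies without a called region. All are written in the orientation of region 5, the copies before Serpinb9c and Gm11382 from the minus strand, with the RUNX motif in capitals.
Runx3-bound region 5 at Serpinb9, chr13:33093274-33093309: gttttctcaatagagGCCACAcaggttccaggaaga
Copy upstream of Serpinb9b, chr13:33115663-33115694: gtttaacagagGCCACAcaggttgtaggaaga
Copy upstream of Serpinb9c, minus strand, chr13:33256499-33256534: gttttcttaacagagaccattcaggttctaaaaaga
Copy upstream of Gm11382, minus strand, chr13:33038947-33038982: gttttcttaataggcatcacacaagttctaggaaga

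Region 2, upstream of Serpinb1c, was matched by 197 aligned bp at 82.7% identity 4.65 kb upstream of Serpinb1b, by 195 bp at 75.9% 3.57 kb upstream of the pseudogene Serpinb1-ps1 and by the 95 bp at 88.4% upstream of Serpinb1a. Its RUNX motif lay within the alignment only for the pseudogene, where the same motif was present, as the following plus strand sequences show.
Runx3-bound region 2 at Serpinb1c, chr13:32994549-32994581: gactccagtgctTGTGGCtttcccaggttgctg
Copy upstream of Serpinb1-ps1, chr13:32958571-32958606: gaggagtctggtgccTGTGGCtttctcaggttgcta
Region 6, upstream of Serpinb1b, had a copy of 402 bp at 88.1% identity 9.67 kb upstream of Serpinb1c. None of the 4 RUNX motifs of region 6 was in the aligned part, and the copy held 1 of its own. Region 3 had a copy of 193 bp at 76.2% identity 5.23 kb upstream of Serpinb6b, outside which its RUNX motif lay.

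RUNX motifs at the gene starts themselves did not run in parallel with the called regions. In the window from 250 bp before to 50 bp after the start, 1 of the 7 genes, Serpinb1a, held a RUNX motif (TGTGGC), against 45.3% of all protein-coding genes. Among the 8 other listed clade B serpins of chromosome 13, none of which had a Runx3-bound region within 10 kb, 7 held one, all but Serpinb6e. The starts of close copies are not independent, so these counts are descriptions, and no test was made.

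At the second clade B serpin locus of the mouse, on chromosome 1, 11 annotated genes were examined. There 1 gene, Serpinb2, had a Runx3-bound region, which lay inside the gene, and 1 gene, Serpinb5, had an H3K4me1-marked region within 10 kb, against 27.5% and 32.9% of all protein-coding genes. No gene there had both. No test was made, and 11 neighbouring genes are too few to read these counts as a difference. Serpinb10 was listed but not annotated as protein-coding and has no value. Of the 8 proteases that clade B serpins are known to inhibit, 2 had Runx3-bound regions, a share close to the 27.5% of all genes. These were Gzmb and Gzmm, the genes of granzymes B and M, with 2 regions each. H3K4me1 was found at 6 of the 8, against 32.9% of all genes. Gzmb and Gzmm had 3 marked regions each, Gzma, the granzyme A gene, had 4, and Elane, Prtn3 and Ctsb had 2 each, while Ctsg and Ctsl had none. Elane and Prtn3 are neighbours whose windows overlap, and their 2 regions were the same, lying in the Prtn3 body, so these genes are not separate counts. The starts of 3 of the 8, Gzmb, Gzma and Gzmm, lay in H3K4me1-marked sequence, against 1.29% of all genes, as did those of Serpinb1a and Serpinb9 among the serpins. These 8 genes were a chosen list and no test was made.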

How the data were processed

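Regions bound by Runx3 or marked by H3K4me1 were mapped by ChIP-seq in IL-2-activated CD8-TC. As the study's methods describe, the authors used ELAND to align reads to mm9, discarded reads without a unique position, joined repeats and called peaks with MACS 1.4 against joined NIS reads, scaling the larger read set to the smaller. The deposited values are start and end positions in bp, in 1 list per antibody, with no height or score, and 0 columns of other samples. The protocol speaks of replicate experiments for both antibodies, whereas the labels give 1 H3K4me1 library.

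Coordinates were counted from 1. Genes were the protein-coding genes of GENCODE vM1 on the autosomes and X, with gene starts at the outermost annotated end. Overlap required 1 bp. Sequence came from NCBIM37 (mm9). Motifs were searched on both strands, and 40-base words were counted on both strands of the genome, with 1 word sampled every 10000 bp outside the interval. The share of words found once approximates, but is not, the share of positions that ELAND could align. Copies were sought with BLAST 2.17.0 (blastn, E-value 1e-10) within the interval, and those covering 25% or more of a region were kept. Python 3.11.15, NumPy 2.4.6, SciPy 1.17.1, Biopython 1.88 and matplotlib 3.10.9 were used. In 4 checks on simulated data there were 0 differences from direct counting.

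All 7 genes, all genes of the interval, all its Runx3-bound regions and the H3K4me1-marked regions at them or at the starts of the 7 genes were eligible for naming, as were 3 further lists: the other clade B serpins of chromosome 13, those of chromosome 1, and proteases that clade B serpins inhibit. Members and lists were chosen with earlier results of these data known. Alternatives were other distances around the gene, merged or wide regions, other definitions of overlap and narrower motif searches, and, chosen after seeing the data, gene domains from 5 kb before to 1 kb after the start, widened until they met the next gene's domain or 1 Mb was reached. A stricter peak threshold was not applied because the lists have no scores. NIS libraries entered only through the peak calling.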

Additional observations from a re-analysis of the deposited data

How the results depend on the processing

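Of 17 alternatives over 6 counts, 14 stayed within 1.5 times the reported count and 3 did not. Within the gene body alone, 1 of the 7 genes, Serpinb6b, had a Runx3-bound region, in place of 4, and 18.1% of all genes did, in place of 27.5%. Among regions at or above the median width of their list, there were 2 Runx3-bound regions (4 and 6), in place of 6, and 7 H3K4me1-marked regions, in place of 14. A cut at the median width keeps only the wider part of the whole list too. A drop of this kind was therefore built into the setting and says nothing particular about the locus. The alternative with domains reaching to neighbouring genes was chosen after seeing the data. It gave 6 of the 7 genes a region of each list, and none of the 8 other listed clade B serpins of chromosome 13. No paired analysis was possible because each list was called once on joined reads. The lists hold no reads for single regions, and a region not called is not shown to be unbound.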
